A study of Saccharomyces cerevisiae with 180 samples.

Results

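The genes described here are 9 stress genes of the yeast Saccharomyces cerevisiae, HSP12, CTT1, DDR2, MSC1, SOL4, FMP45, RTN2, GAD1 and TFS1, out of 5605 genes on the arrays. They were chosen by their wide range over the progeny of a cross, by their co-variation there and by progeny values below both parents. Range, co-variation and distance from the parents are therefore given as description, with no test. Each of the 9 genes had a single probe.

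Yeast cells under stress or short of nutrients switch on a common set of genes, the general stress response. The transcription factors Msn2 and Msn4 drive much of it, and protein kinase A, the kinase that cyclic AMP activates when glucose is plentiful, keeps them out of the nucleus. The response is known to run opposite to ribosome production and growth, and it includes proteins against oxidants, membrane protectants and the enzymes of the storage sugars trehalose and glycogen.

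The 180 arrays had 2 colours and set RNA of a culture against a reference pool of the laboratory strain BY4716. Each of 90 cultures had 2 arrays with the dyes exchanged, which were averaged to 1 value per culture. There were 2 cultures of BY4716, 2 of the vineyard strain RM11 and 86 segregants, haploid progeny of BY4716 and RM11-1a, each grown as 1 culture. No treatment was labelled. BY4716 is a haploid of the S288c background with mating type alpha that lacks LYS2, while RM11 is a haploid derivative of a wild isolate with mating type a that lacks LEU2, URA3 and HO. The 4 parental cultures are labelled as independent cultures, whereas a segregant has no repeat culture, so its 2 arrays count as 1 replicate. Values are log2 ratios of culture over pool, so 0 is the level of the pool and a difference of 1 is a 2-fold change. A value is a mean over the cells of a culture, so more cells with a transcript and more transcript per cell cannot be told apart.

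The strain markers followed the genotypes and set the direction of the ratios, so they are no finding. LEU2, an enzyme gene of leucine synthesis, was at -0.14 and -0.11 in the BY4716 cultures and at -5.84 and -5.51 in the RM11 cultures. The α-factor receptor gene STE2, active in cells of mating type a, was at -0.05 and -0.06 in BY4716 and at 5.17 and 5.86 in RM11. URA3, HO and the a-factor receptor gene STE3 were at -6.46 to -4.10 in RM11, and LYS2 was at 5.61 and 5.19, with no value in BY4716. The arrays had 3769 to 6570 values each (median 6288.5). The number of arrays and cultures limits the precision, since signal intensities were not used here.

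The progeny spread far beyond the spread between repeat cultures of a parent. HSP12, which encodes a small membrane-associated stress protein, had a value in 81 segregants, from -5.20 through a median of 0.34 to 3.17. CTT1, the cytosolic catalase that breaks down hydrogen peroxide, ran from -2.39 through 0.74 to 4.04 in 84 segregants. DDR2, a small protein gene named for its response to DNA damage and also induced by heat, ran from -2.99 through 0.25 to 3.28 in 84. From the lowest to the highest segregant these spans are 329-fold for HSP12, 86-fold for CTT1 and 77-fold for DDR2. Segregants lay on both sides of all 4 parental cultures in each of these genes.

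The range of the membrane protein genes reached higher above the pool than below it, as did the ranges of CTT1, DDR2 and MSC1. FMP45, a membrane protein of the SUR7 family at the cell cortex, ran from -1.53 through 0.14 to 4.15 in 80 segregants. RTN2, a reticulon-like protein that shapes the endoplasmic reticulum, ran from -3.34 through 0.45 to 3.69 in all 86. FMP45 had the shortest lower side of the 9 genes: 0 segregants were below -2 and 16 above 2, with a skewness of 0.63. HSP12 had the longest lower side, with 22 below -2, 19 above 2 and a skewness of -0.43. The lowest RTN2 value, in segregant 18-2-d, came from arrays that disagreed, at -1.72 and -4.96, and the next lowest segregant, 10-4-d, was at -2.44.

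Among the enzymes, SOL4, a 6-phosphogluconolactonase of the pentose phosphate pathway, ran from -3.59 through -0.54 to 2.18 in 84 segregants. GAD1, the glutamate decarboxylase, ran from -3.21 through -0.17 to 2.00 in 84. TFS1 encodes an inhibitor of carboxypeptidase Y and of Ira2, a protein that switches off Ras in the pathway to protein kinase A. TFS1 had the narrowest range of the 9, from -2.47 through -0.27 to 1.82 in 85. MSC1, of unknown molecular function and linked to meiotic recombination, ran from -3.0 through 0.10 to 3.08 in 84. Over segregants SOL4, GAD1 and TFS1 had medians below the pool, and the other 6 genes had medians above it.

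**Figure D1:**
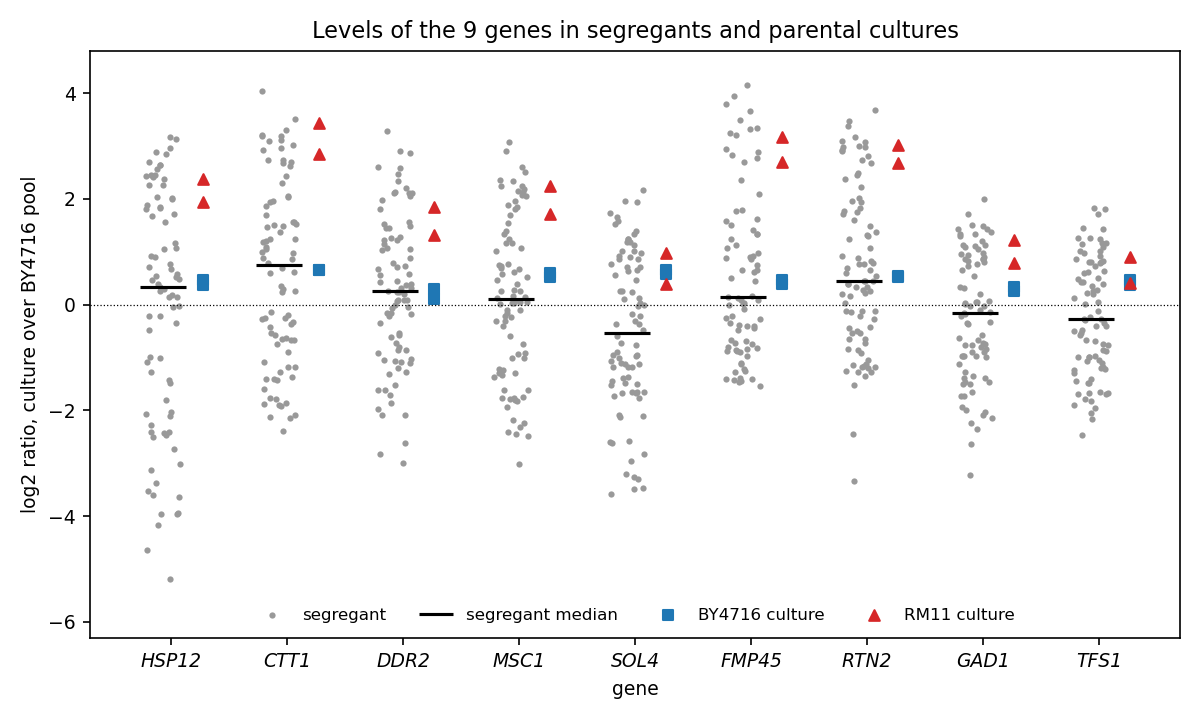
Log2 ratios over the BY4716 pool (vertical axis) of the 9 genes (horizontal axis). Grey points are segregants, black bars their medians, blue squares the 2 BY4716 cultures and red triangles the 2 RM11 cultures. The segregants of HSP12 reach from -5.20 to 3.17, while its 4 parental cultures lie between 0.37 and 2.38.

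The SD over segregants was 2.25 for HSP12, 1.72 for CTT1, 1.59 for FMP45, 1.54 for RTN2 and 1.52 for MSC1. It was 1.5 for SOL4, 1.44 for DDR2, 1.21 for GAD1 and 1.10 for TFS1. Of 5007 genes with a value in at least 80 percent of segregants, HSP12 ranked 13 by SD and TFS1 ranked 81, against a median SD of 0.246. A further 72 genes had an SD above that of TFS1, and 56 of them had a correlation with the mean of the 9 genes within 0.3 of 0, while 9 of them had one over 0.8. Between repeat cultures of a parent, 2 per strain, the pooled SD of HSP12 was 0.227. Its segregant SD was 9.88 times as large, a multiple that rests on those few cultures. That multiple was 4.33 for TFS1, the lowest of the 9. Between dyes, the 2 arrays of a culture correlated over segregants with r from 0.911 for FMP45 to 0.989 for HSP12. The median over all genes was 0.658, but a wide range raises such an r, and range chose these genes. The SD of the difference between the dyes ran from 0.23 log2 units for TFS1 to 0.70 for FMP45. DDR2 had the largest offset between dyes, Cy3-titled arrays reading 0.31 log2 units lower (mean difference -0.31).

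Segregants often lay below every parental culture, one of the properties that chose the genes. HSP12 was below the lowest of the 4 parental cultures, 0.37, in 41 of 81 segregants, and above the highest in 13. SOL4 was below in 56 of 84 (66.7%), the largest share, and above in 17. DDR2 was below in 39 of 84 (46.4%), the smallest share, and above in 14. CTT1 had 41 below and only 2 above its parental range, the fewest of the 9 genes. The counts below were 54 of 85 for TFS1, 53 of 84 for GAD1, 50 of 84 for MSC1, 44 of 86 for RTN2 and 42 of 80 for FMP45. Over the 3193 genes with parental values the median share below was 22.6% and the median share above 20.3%.

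The mean of the segregants was below the midpoint of the parental means for all 9 genes. The distance was -1.38 log2 units for HSP12, -1.29 for CTT1, -1.17 for SOL4, -1.15 for MSC1, -1.11 for FMP45, -1.02 for RTN2, -0.88 for GAD1, -0.76 for TFS1 and -0.63 for DDR2. The BY4716 cultures themselves were above the pool of their own strain in these genes, and the distance depends on that offset. Measured from the pool instead, 31 of 86 segregants were below 0 for RTN2, the smallest share, and 50 of 84 for SOL4, the largest. What set the parental cultures above the pool was not tested, and the progeny's low values and a state shared by the parental cultures cannot be told apart in this design.

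The comparison of RM11 with BY4716 asked whether the parents differed in these genes, a contrast that did not choose them, although the parental values entered the choice. By limma with Benjamini-Hochberg adjustment 7 of the 9 genes were higher in RM11 and 0 were lower, where 18.2% of 3256 genes were called higher and 8.54% lower. Their median difference was 1.41 log2 units against 0.10 over all genes tested. SOL4 and TFS1 did not pass. All the p-values here rest on 2 cultures per strain.

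The membrane proteins and the catalase differed most between the parents. FMP45 was at 0.46 and 0.40 in BY4716 and at 3.18 and 2.70 in RM11, and was higher by 2.51 (SE 0.17), or 5.70-fold, with an adjusted p of 0.000594 by limma. CTT1 was at 0.66 and 0.65 in BY4716 and at 3.43 and 2.84 in RM11, a difference of 2.48 (SE 0.20), or 5.57-fold, with an adjusted p of 0.000988. RTN2 was at 0.53 in both BY4716 cultures and at 3.01 and 2.68 in RM11, a difference of 2.32 (SE 0.13), or 4.99-fold, with an adjusted p of 0.000339. In each of the 3 genes every RM11 culture was above every BY4716 culture, but how many of all genes did so was not counted.

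HSP12 was at 0.37 and 0.47 in BY4716 and at 2.38 and 1.93 in RM11, higher by 1.74 (SE 0.16), with 0.00169 as the adjusted p of limma. MSC1 was at 0.52 and 0.60 in BY4716 and at 2.24 and 1.71 in RM11, higher by 1.41 (SE 0.18), with 0.00577. DDR2 was at 0.11 and 0.29 in BY4716 and at 1.84 and 1.31 in RM11, higher by 1.38 (SE 0.19), with 0.00671. These 3 genes, and GAD1, also separated the strains without overlap. With 2 cultures per strain and no count over all genes, that separation says nothing particular about them. GAD1 was at 0.25 and 0.33 in BY4716 and at 1.23 and 0.78 in RM11, the smallest called difference, at 0.72 (SE 0.16), or 1.64-fold, with 0.0292.

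The 2 genes that were not called had overlapping or near parental levels. SOL4 was at 0.57 and 0.66 in BY4716 and at 0.97 and 0.39 in RM11, a difference of 0.07 (SE 0.19) with an adjusted p of 0.822 by limma, and the strains overlapped. TFS1 was at 0.46 and 0.37 in BY4716 and at 0.91 and 0.40 in RM11, a difference of 0.24 (SE 0.17) with 0.352, and the strains overlapped. Yet their segregants spanned 54.3-fold and 19.5-fold. In RM11 replicate 1 all 9 genes were above replicate 2, by 0.33 to 0.59 with a median of 0.50, while over all genes that difference had a median of -0.03 and an SD of 0.27. Whether this difference between the RM11 cultures bears on the strain difference was not tested. Without RM11 replicate 1 the difference was -0.22 for SOL4 and -0.01 for TFS1, and without RM11 replicate 2 it was 0.35 and 0.49, both then called.

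Some calls were lost when a culture was left out or the scaling changed. HSP12, CTT1, FMP45 and RTN2 were called under every alternative, with their lowest differences at 0.76, 0.81, 1.26 and 0.93 after quantile normalization of the arrays. That step gives every array the same spread, and the BY4716 arrays had an SD over genes of 0.198 to 0.299 against 0.692 to 0.873 for RM11, so it enlarges BY4716 ratios. DDR2, MSC1 and GAD1 lost their calls without BY4716 replicate 1, with limma adjusted p-values of 0.0750, 0.0668 and 0.221, and without BY4716 replicate 2, with 0.0583, 0.0628 and 0.169. The differences themselves moved little, to between 1.28 and 1.47 for DDR2, 1.37 and 1.45 for MSC1 and 0.68 and 0.76 for GAD1. After quantile normalization MSC1 and GAD1 lost theirs as well, at 0.35 and 0.25, and SOL4 was called lower in RM11, at -0.78. GAD1 was not called on Cy3-titled arrays alone, with an adjusted p of 0.0847.

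The other genes of the stress response gave fewer calls between the parents, and the lists were not compared with a test. The shares called higher in the first 5 lists below are near the 18.2% of all genes and say nothing particular about them. Of 18 tested genes in a list of 28 other general stress genes 4 were higher in RM11 and 1 lower, with a median difference of 0.34. CYC7, an isoform of cytochrome c, was higher by 1.84 (limma adjusted p 0.000138), and DDR48 was at -0.53 (0.0446). Trehalose and glycogen metabolism had 3 of 14 higher, among them TPS1, the trehalose-6-phosphate synthase, by 0.75, and 0 lower, with a median of 0.12. The chaperones had 3 of 15 higher and 4 lower, and the small heat shock protein gene HSP26 stood at -3.47, opposite to HSP12. Oxidant defence had 4 of 21 higher, led by SOD2, the mitochondrial superoxide dismutase, at 1.13, and 2 lower, including GPX2, a glutathione peroxidase, at -0.67. Of 24 regulators of stress and protein kinase A 5 were higher and 0 lower. They were MSN2 (0.66), MSN4 (0.45), GIS1 (0.48), a transcription factor of nutrient limitation, BCY1 (0.56), the inhibitory subunit of protein kinase A, and GPA2 (0.59), a G protein that acts in glucose sensing.

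Transcripts of respiration genes were higher in RM11 too. Of the tricarboxylic acid cycle 13 of 13 genes were called higher, and of the respiratory chain and ATP synthase 24 of 26, at medians of 0.73 and 1.16. Fatty acid oxidation and peroxisomes had 4 of 7 called higher and 0 lower. None of 35 cytosolic ribosomal protein genes and, of 38 ribosome biogenesis genes, 1 (lower) were called.

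**Figure D2:**
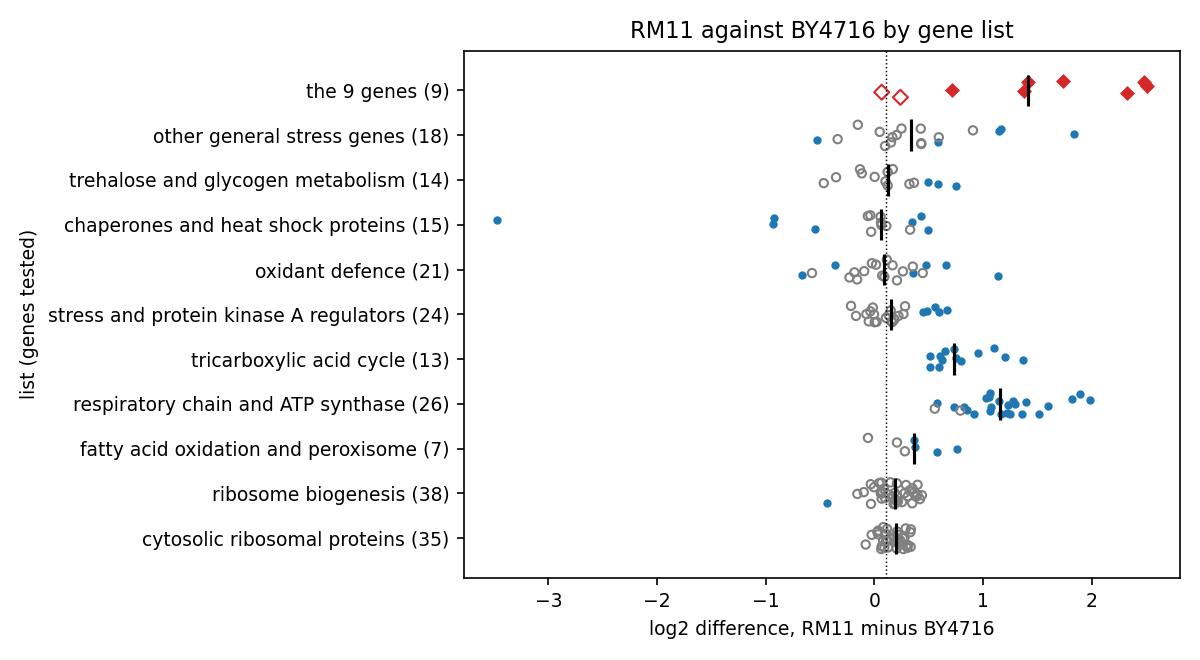
Log2 difference of RM11 minus BY4716 (horizontal axis) for the 9 genes (red diamonds) and for 10 gene lists (circles), with the number of genes tested in brackets. Filled symbols have a limma adjusted p under 0.05, black bars are list medians and the dotted line is the median of all genes at 0.10. Of the 9 genes 7 are filled, from 0.72 to 2.51, while the list of other general stress genes has a median of 0.34.

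Setting the BY4716 cultures against the pool, also BY4716, asked how far separate cultures of a strain lie apart. The genes were chosen partly by segregant values below both parents, so high BY4716 values entered the choice, and the values of the 9 genes here are a description. All 9 genes were above 0 in both BY4716 cultures, with means from 0.20 for DDR2 to 0.66 for CTT1. No gene passed by limma, 0 of the 9 and 0% of the 3256 tested, and 616 of all genes had an unadjusted p under 0.05. The adjusted p of the 9 genes lay between 0.145 for RTN2 and 0.435 for DDR2. The pool is 1 sample, so its own spread is not included, and the spread of the RM11 cultures entered the fit. Without RM11 replicate 1 or 2 the spread between cultures came from the BY4716 pair alone. Calls were then common over all genes, the 9 genes among them. All 9 were also called after quantile normalization, which called 850 genes in all. Since high BY4716 values entered the choice, such calls say nothing particular about the 9 genes. DDR2 was at -0.13 on Cy3-titled arrays alone, in the opposite direction.

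The 9 genes rose and fell together from segregant to segregant, as the choice on co-variation implies. Over 36 pairs Pearson's r averaged 0.902, from 0.821 between HSP12 and TFS1 to 0.953 between CTT1 and RTN2. Both genes of a pair share a culture, its arrays and the pool. With one gene read from Cy3-titled and the other from Cy5-titled arrays, so that no array was shared, the average was 0.883. In the 67 segregants with all 9 values the first principal component held 92.0% of the scaled variance and the second 2.36%. All 9 genes were below every parental culture in 21 of the 67, none was in 20, and the other 26 were mixed. In 1 segregant, 6-5-d, all 9 were above every parental culture.

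Segregant 6-5-d was the highest of all for HSP12, CTT1, DDR2, MSC1, FMP45 and RTN2. It stood at 3.17 for HSP12, 4.04 for CTT1 and 4.15 for FMP45. At the other end, 18-2-d was the lowest for CTT1 (-2.39), RTN2 and TFS1 (-2.47), and 14-6-d was the lowest for MSC1 (-3.0) and GAD1 (-3.21). HSP12 was lowest in 4-1-c, at -5.21 and -5.18 on its 2 arrays, where TFS1 was at -1.04 and RTN2 at -0.91. The order of the segregants was thus alike but not equal between genes. The percentile ranks of the 9 genes in a segregant spanned a median of 22.5 points, and 13 segregants were among the lowest 33.3% for all 9 genes and 16 among the highest 33.3%.

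**Figure D3:**
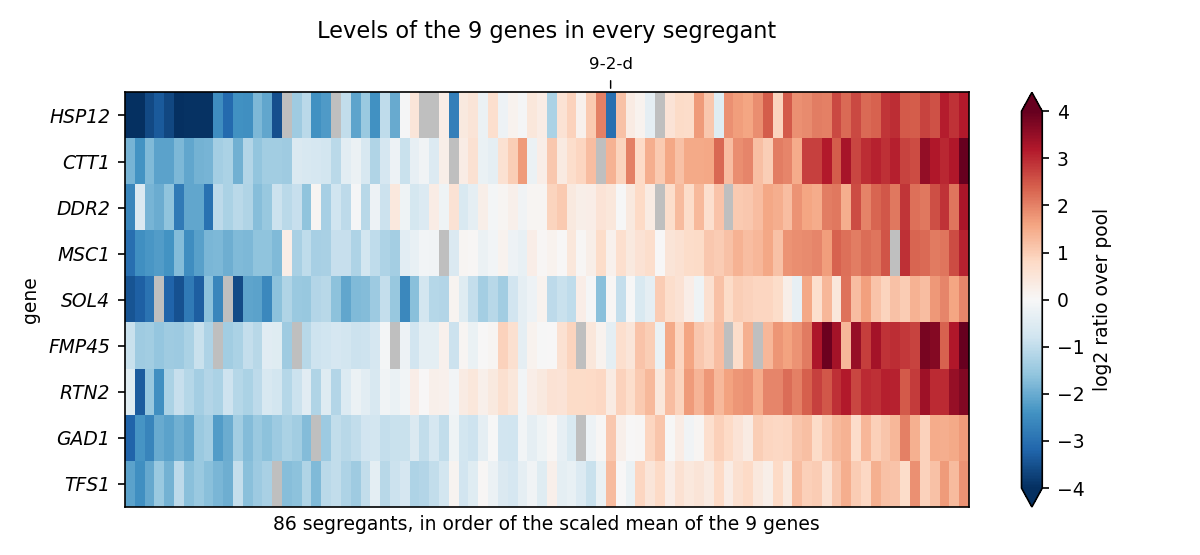
Log2 ratios over the pool (colour, limited to -4 and 4) of the 9 genes (rows) in the 86 segregants (columns), ordered by the scaled mean of the 9 genes. Grey cells had a value on only 1 of the 2 arrays and were left out. The colours change together along the columns, and segregant 9-2-d shows low HSP12, at -3.02, beside CTT1 at 1.38.

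MSC1 followed the other genes most closely and HSP12 least. The correlation with the scaled mean of the other 8 genes was 0.975 for MSC1, 0.968 for CTT1, 0.963 for RTN2, 0.951 for GAD1 and 0.940 for DDR2. It was 0.930 for TFS1, 0.922 for FMP45, 0.921 for SOL4 and 0.910 for HSP12. The other genes left 17.1% of the variance of HSP12, 15.2% of SOL4 and 4.97% of MSC1 unaccounted for. Fitted on HSP12, the slope in log2 units per log2 unit of HSP12 was 0.69 for CTT1, 0.66 for MSC1, 0.63 for RTN2, 0.61 for FMP45, 0.58 for SOL4, 0.57 for DDR2, 0.47 for GAD1 and 0.41 for TFS1.

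A few segregants broke the pattern. In 9-2-d HSP12 was at -2.92 and -3.11 on the 2 arrays, while CTT1 was at 1.53 and 1.22, GAD1 at 1.05 and 1.11 and TFS1 at 1.32 and 1.18. Its HSP12 value had a residual of -3.55 from the line on the other genes, the lowest of HSP12, and its GAD1 and TFS1 residuals were the highest of those genes, at 1.29 and 1.49. Both dye orientations gave this split. In 18-3-d HSP12 was at 1.87 and 2.16 and SOL4 at -1.66 and -1.70, and HSP12 was 2.19 above its line. In 14-6-d HSP12 was at -4.63 but RTN2 at -0.50, which was 1.67 above its line. Over all 86 segregants 3 had some of the 9 genes above 1 and others below -1, namely 9-2-d, 13-4-a and 18-3-d, named after their values were seen.

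**Figure D4:**
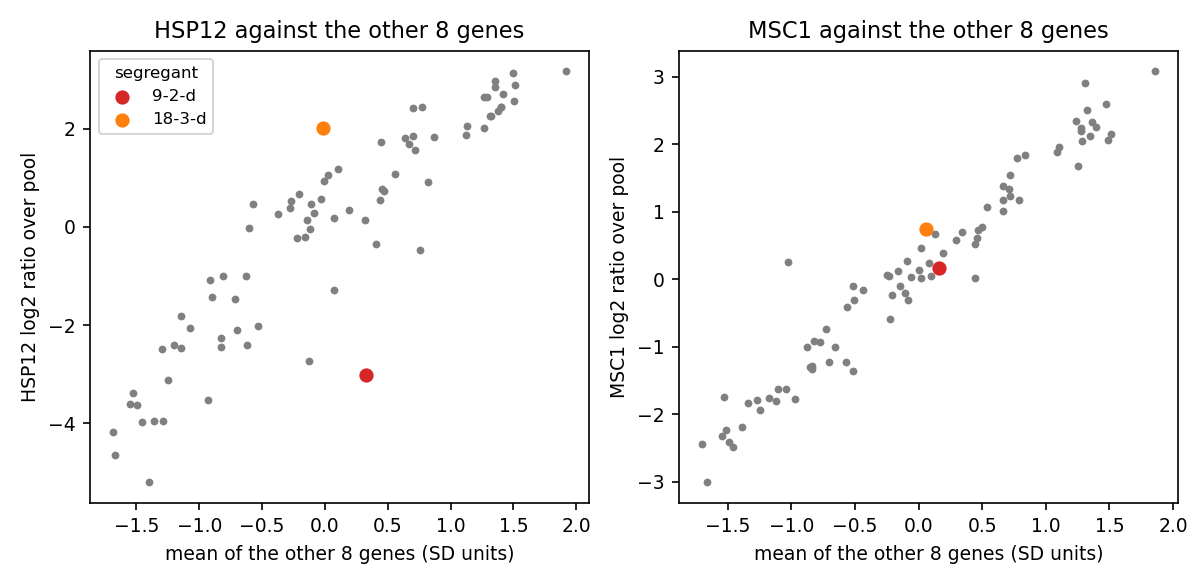
Log2 ratio over the pool of HSP12 (left) and MSC1 (right) on the vertical axes against the mean of the other 8 genes in SD units on the horizontal axes, 1 point per segregant. HSP12 scatters more around the shared axis (r 0.910) than MSC1 (r 0.975), and 9-2-d (red) and 18-3-d (orange) have HSP12 residuals of -3.55 and 2.19.

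The segregant titles hold a first number and a letter, whose meaning the labels do not give. Neither gave a call in the 9 genes. For the first number, with 17 values over 85 segregants, limma's F test called none of the 9 genes, with adjusted p-values from 0.766 for SOL4 to 0.999 for DDR2, and 0.16% of 4997 genes. For the letter it called none, with adjusted p-values of 0.999, and 0% of 5007 genes. For HSP12, CTT1, DDR2, MSC1, RTN2, GAD1 and TFS1 each of the 17 first numbers held segregants both above and below the lowest parental culture. Within a first number HSP12 spanned between 1.59 and 8.33 log2 units, with a median of 5.18, and its SD within first numbers was 2.36, no smaller than the 2.25 over all segregants. The mean pairwise r of the 9 genes within first numbers was 0.907. The number of values that the arrays of a culture held had a negative r over segregants with all 9 genes, between -0.27 for SOL4 and -0.14 for HSP12.

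The 6 other genes most like the mean of the 9 had r from 0.933 to 0.956. OM45, a protein of the mitochondrial outer membrane, had an r of 0.956 over 81 segregants, and TPS2, the trehalose-6-phosphate phosphatase, had 0.950 over 86. SPI1, a cell wall protein, had 0.946, FMP16 had 0.944, YKL091C 0.943 and TSL1, a subunit of the trehalose synthase complex, 0.933. Over all genes the median r was -0.07, and 16 genes were over 0.9. Their ranges differed: TPS2 ran from -1.10 through 0.11 to 1.52, and YKL091C from -0.81 through 0.12 to 1.54. SPI1 was the widest, from -3.32 through -0.25 to 2.88. At the other end PRO1, the kinase that starts proline synthesis, had an r of -0.858, CCT3, a subunit of the cytosolic chaperonin, -0.797 and PUS7, an RNA pseudouridine synthase, -0.786. In the parents FMP16 was higher in RM11 by 1.17, YKL091C by 1.03 and TPS2 by 0.49, with limma adjusted p-values of 0.0347, 0.00384 and 0.0141. PRO1 was lower in RM11 (-0.52, 0.0247), and TSL1, CCT3 and PUS7 were not called, while OM45 and SPI1 could not be tested for lack of BY4716 values.

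To see which pathways moved with the 9 genes, every other gene was fitted with limma on the level of HSP12 over the 81 segregants with a HSP12 value. Of 4998 genes 862 had a positive slope at an adjusted p under 0.05 (17.2%) and 1373 a negative one (27.5%), with a median slope of -0.008. The slopes are in log2 units per log2 unit of HSP12. Both genes share a culture, so a slope describes co-variation and no direction of effect. The lists were drawn up with earlier results of these data known and are no independent evidence.

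The remaining general stress genes and the storage sugar genes moved with HSP12. In the list of other general stress genes 23 of 24 were called positive and 0 negative, with a median slope of 0.21. PHM7, a membrane protein, had 0.73 (SE 0.05) and TKL2, a transketolase, 0.62 (SE 0.04). DDR48 was the gene not called, at 0.08 with an adjusted p of 0.0688. In trehalose and glycogen metabolism 17 of 18 were positive and 0 negative, at a median of 0.18. GPH1, the glycogen phosphorylase, had 0.46 (SE 0.04) and PGM2, a phosphoglucomutase, 0.39 (SE 0.03). Enzymes of synthesis and of breakdown were both among them: GSY2, a glycogen synthase, had 0.20, and NTH1, a trehalase that breaks trehalose down, 0.12. PIG2, which encodes a possible regulatory subunit of protein phosphatase 1, was the gene not called, at 0.01 with an adjusted p of 0.865.

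The chaperones and oxidant genes held calls of both signs, where 17.2% of all genes were positive and 27.5% negative. Of 22 chaperone genes 5 were positive, near the share of all genes, and 10 negative. HSP26 (0.30) and SSE2 (0.21), with SSA4, HSP42 and the disaggregase HSP104, rose with HSP12. BTN2 (-0.09) and the co-chaperone YDJ1 (-0.07), with SSA1, SSA2 and both genes of the Hsp90 chaperone, HSC82 and HSP82, fell as HSP12 rose. Near-identical pairs such as SSA1 and SSA2 or HSC82 and HSP82 may share signal on an array, which was not tested. HSP26 thus moved with HSP12 in the segregants while the parents differed in it in the opposite direction to HSP12. Of 23 oxidant defence genes 9 were positive, with GTT1, a glutathione transferase, at 0.21 and TSA2, a peroxiredoxin, at 0.14. A further 5 were negative, with CCS1, the copper chaperone of superoxide dismutase, at -0.06 and GPX2 at -0.05. The positive share of the chaperones and the negative share of the oxidant genes say nothing particular about these lists.

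Among 28 regulators of stress and protein kinase A 13 were positive and 3 negative. MSN4 had the largest slope, 0.18 (SE 0.02, r 0.742), whereas its partner MSN2 had 0.02 with a limma adjusted p of 0.154. RGS2, which limits Gpa2 signalling, had 0.11, and YAK1, a kinase opposed to protein kinase A, 0.08. GIS1 had 0.07. Genes of the cyclic AMP pathway itself were also called positive, on both of its sides: CYR1, the adenylate cyclase, at 0.07, TPK2, a catalytic subunit of protein kinase A, at 0.04, GPA2 at 0.04 and RAS2 at 0.03, and the phosphodiesterase genes PDE1 and PDE2, which remove cyclic AMP, at 0.05 each, with BCY1 at 0.05. BMH1, a 14-3-3 protein, had 0.06 and the phosphatase gene PSR2 0.02. SCH9, a kinase that promotes growth, SOK2 and SKO1, both transcription factors, were negative, each at -0.04. Of these regulators, SOK2 and SKO1 lost their calls on Cy3-titled arrays alone (adjusted p 0.0702 and 0.0567 by limma) and TPK2 on Cy5-titled arrays alone (0.0575). RAS2 lost its call without the 2 segregants farthest from the median of HSP12 (0.0573), and SCH9 and RAS2 lost theirs with FMP45 in place of HSP12 (0.0658 and 0.0986). IRA2, the partner that TFS1 inhibits, had 0.01 with an adjusted p of 0.321.

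Respiration and ribosome genes moved in opposite directions. All 15 tested genes of the tricarboxylic acid cycle and all 28 of the respiratory chain and ATP synthase were positive, at medians of 0.09 and 0.08. SDH2, a subunit of succinate dehydrogenase, and MDH1, the mitochondrial malate dehydrogenase, had 0.14 each, ATP15 had 0.12 and RIP1 0.11. The respiratory count was 21 after quantile normalization. Of 46 ribosome biogenesis genes 40 were negative and 0 positive, with NOP1 and UTP20 at -0.09. Of 37 cytosolic ribosomal protein genes 27 were negative and 0 positive, with RPL32 and RPS11A at -0.06, and that count lay between 15 and 37 over the alternatives with the same or more genes tested. Fatty acid oxidation and peroxisomes had 5 of 13 positive, such as SPS19 (0.08) and FOX2 (0.06), and 3 negative. Among the negative were CIT2, the peroxisomal citrate synthase, at -0.12 and ANT1 at -0.05, and their share is near the 27.5% of all genes. RIP1 and ANT1 lost their calls after quantile normalization (limma adjusted p 0.153 and 0.154). With FMP45 in place of HSP12, and with some others of the 9 genes, SPS19 and CIT2 lost theirs (0.0984 and 0.0778 with FMP45).

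The strain markers that segregated in the cross did not pass. LEU2 had a slope of 0.01 (SE 0.13, limma adjusted p 0.970), URA3 0.00 (SE 0.13, 0.981), HO 0.03 (SE 0.10, 0.831), STE2 0.14 (SE 0.12, 0.341) and STE3 -0.01 (SE 0.13, 0.956). None of 5 tested was called.

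**Figure D5:**
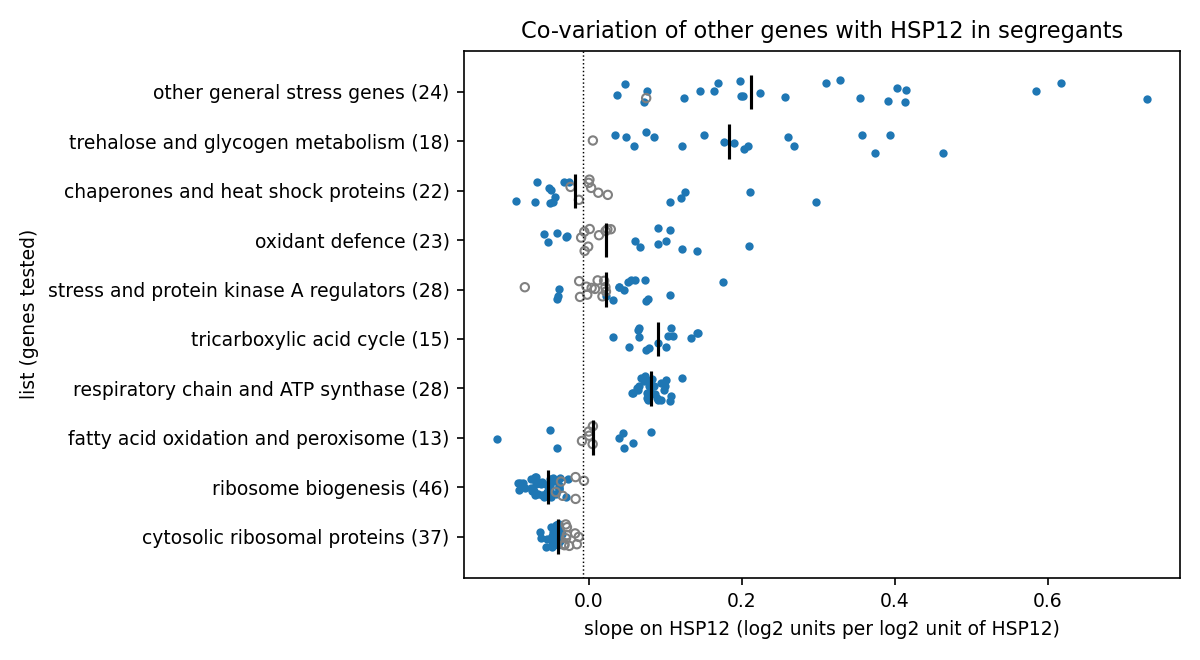
Slope of each gene on HSP12 over segregants (horizontal axis, log2 units per log2 unit of HSP12) for 10 gene lists, with the number of genes tested in brackets. Filled circles have a limma adjusted p under 0.05, black bars are list medians and the dotted line is the median of all genes at -0.008. The list of other general stress genes lies at a median of 0.21 and ribosome biogenesis at -0.05.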

How the data were processed

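The deposited values are log ratios of each culture over the BY4716 pool, read as log2. No source gives the base. Base 2 makes the most negative value 2482-fold, and base e would make it 78991-fold, which exceeds the 65536 steps of 16-bit scanning. The authors centred each array on a mean of 0, as the values show. Array medians lay between -0.063 and 0.074. The scanner and the corrections applied to its signals are not given in the sources used here, and both dye orientations already pointed the same way. Of 7085 probes 5645 were paired with 1 gene symbol, and 1440 that were not paired with a single gene were left out. Probes of a gene were averaged, giving 5605 genes.

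A culture had a value where both its arrays had one. Parents were compared with limma 3.58.1 in R 4.3.3 on 4 cultures, for genes with values on all 8 parental arrays. Slopes and F tests used genes with a value in at least 80 percent of segregants, and calls a Benjamini-Hochberg adjusted p under 0.05. Tests were run on simulated data with known changes before use. The mean of the 9 genes was that of their centred and scaled values, for segregants with at least 7 of them. The 9 genes, the 11 gene lists and the tests were chosen with earlier results of these data known. Named were the 9 genes, the 6 genes most and 3 least like their mean, up to 2 genes per list and sign by slope on HSP12, all called regulators and the strain markers. Genes outside that rule were named after their values were seen: the extreme or other called genes of a list, and genes that missed a call in it. Same-numbered parental cultures were not shown to be paired, with a correlation of 0.189 over deviations from the strain means. The alternatives were other scalings, single dyes, left-out cultures, filters on missing values and other genes of the 9 in place of HSP12. No promoter or protein sequences were used here.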

Additional observations from a re-analysis of the deposited data

How the results depend on the processing

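RM11 against BY4716 gave 869 called genes, 533 with Cy3-titled arrays alone, 219 where a gene needed all 180 arrays and 199 to 1797 with 1 parental culture left out, the lone culture borrowing its spread from the other strain. With the replicate number as a block (replicate block) it gave 830, and the block changed no call of the 9 genes. BY4716 against the pool gave 0, 850 after quantile normalization, 13 with Cy5-titled arrays alone, 3 with 1 value per culture enough and 0 to 1396 with 1 culture left out. The slopes on HSP12 gave 2235 calls, 509 among the 1009 genes with a value in every segregant, and 2010 to 2774 otherwise; in every alternative all genes called in both kept their sign. The share of positive slopes was 38.6% and between 36.7% and 46.3% over the alternatives. The first number of the title called 8 genes, 13 after median centring, 13 after quantile normalization, 2 with Cy3-titled and 19 with Cy5-titled arrays alone, 2 among genes with a value in every segregant and 0 to 11 with 1 first number left out, 0 without first number 6. Reversed were SOL4 (-0.78) and TFS1 (-0.24) between parents after quantile normalization, both without RM11 replicate 1 (-0.22 and -0.012, against 0.35 and 0.49 without RM11 replicate 2), and DDR2 against the pool on Cy3-titled arrays (-0.13). The mean pairwise r lay between 0.879 and 0.912, and the distance from the midpoint stayed below 0 for all 9 genes, with SOL4 at -1.49 after quantile normalization. Alternatives with 1 array per culture enough, other genes than HSP12 and CTT1 as the regressor, segregants with all 9 values, members read from different arrays and first numbers left out were added after the data were seen. Except where the construction is named above, the cause was not tested. The promoter search was not run.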

Other observations

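Neighbouring genes were looked up in the RefSeq table of assembly R64, and these values were noticed after the data were seen. SOL4 is adjacent to CPD1, which encodes a cyclic phosphodiesterase. Over 73 segregants CPD1 correlated weakly with SOL4 itself (r 0.204). With the residual of SOL4 on the other 8 genes its r was 0.718, the highest of 4998 genes. Without the 2 segregants farthest from the median of that residual the r was 0.702. SOL4 and CPD1 share cultures, arrays and pool. RTN2 is adjacent to ACK1, which had an r of 0.414 with the residual of RTN2 over 83 segregants, rank 21. That r was 0.340 without the 2 segregants farthest from the median of the RTN2 residual. FMP45 is adjacent to HBT1, a gene of mating cell shape, which followed FMP45 itself with r 0.951 over 78 segregants, and TFS1 to YLR177W, with 0.815 over 84. With the residuals of FMP45 and TFS1 these neighbours had r of only 0.273 (rank 236) and 0.162 (rank 1238), and HBT1 also followed the mean of the 9 genes, with r 0.931. CDC13, on the other side of FMP45, had an r of 0.378 with the FMP45 residual over 61 segregants and was not ranked. The neighbours of CTT1 had r of -0.17 (PDC6) and -0.36 (NNF2) with it. The other neighbours with values had r between -0.47 and 0.67 with their gene. No cause of any of these values was tested.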
